A study of Rattus norvegicus with 4 samples.

Results

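The genes described here are *Edem1* and 9 other genes of protein folding and protein disposal in the endoplasmic reticulum (ER), followed across 4 rat livers. They were taken by symbol (*Edem1*, *Hspa5*, *Dnajb9*, *Sel1l*, *Herpud1*, *Xbp1*, *Creld2*, *Sdf2l1*, *Pdia4* and *Hyou1*), and all 10 were found among the 16999 named genes of the tables, each on 1 row. *Edem1* was chosen because it was higher after both anesthetics in these same libraries, so its increase is given as a description and is not tested. The livers came from wild type rats that inhaled sevoflurane at 4.5% or desflurane at 6%, a pair of halogenated gases used for general anesthesia. Each agent had a control, decapitated as soon as consciousness was lost (0 h), and an animal that stayed under anesthesia for 6 h. All 4 animals therefore inhaled an agent, the controls only briefly. For strain, sex and age of the rats, nothing is given in the sources used here. Each of the 4 groups held 1 RNA-seq library, so no value has a replicate error, no p-value was computed, and every difference is a difference between single animals. Control and anesthetized livers were also collected 6 h apart, so anesthesia and the hour of collection cannot be told apart.

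Proteins that enter the secretory pathway fold in the ER with the help of chaperones, and those that fail are carried back to the cytosol and degraded, a route called ER-associated degradation. When unfolded protein accumulates, membrane sensors switch on the unfolded protein response, in which the transcription factors XBP1 and ATF6 raise chaperone and degradation genes while the sensor PERK works through ATF4. Hepatocytes export most plasma proteins and carry an extensive ER. Many genes of the response have short elements for these factors near their start, which are known as ERSE, ERSE-II and UPRE.

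The abundance of a gene is given as TPM, a StringTie measure that is scaled for transcript length and library size. It allows levels of different genes to be compared. Here it is not a share of all transcripts, because loci assembled from the reads already fill a TPM column and named genes come on top. To be called higher or lower, a gene needed a TPM above 2 in whichever library was higher and a ratio above 2 between the libraries. The words rose and fell are used only for such calls. Log2 changes refer to log2(TPM + 1), a scale on which changes of genes with low values come out too small. The aligned bases, as derived from depth and FPKM, came to 3.50 Gb for the sevoflurane control and between 5.29 and 5.57 Gb for the other libraries. The members lay well above the minimum, with a mean depth per base between 56.2 and 2008 over the genes and libraries. Read counts are not in the tables, so no counting interval could be given. All 8 hepatocyte markers examined reached a mean TPM of 1. Their summed TPM lay between 101629 and 105431 in the controls and between 93453 and 98987 at 6 h. The largest part of that sum was *Alb*, with a TPM between 53282 and 58868 in the 4 libraries. Plasma cells and pancreatic acinar cells are rich in ER proteins, so their markers were also examined. The 5 listed B cell and plasma cell markers summed to between 1.70 and 1.99 in the controls and between 0.54 and 0.68 at 6 h. Each of the 5 had a mean TPM below 1, so these values lie near the floor. *Cd79b* was not lower with sevoflurane (0.58 at 0 h and 0.61 at 6 h), while the other markers were lower with both agents. Of 9 listed acinar markers, *Pnlip*, *Prss1* and *Ctrb1* were listed at 0 in every library, and *Cela1* held nearly all of a sum between 25.3 and 31.8.

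Promoter sequences, from 250 bases before to 50 bases after the annotated start, were taken from RefSeq on the assembly GRCr8, which is not the build of the deposited tables (rn6, per the submitters' processing notes). They were found for all 10 genes, as 11 windows because *Hyou1* has a pair of entries. Both strands were searched for ERSE (CCAAT, 9 bases of any kind, then CCACG), ERSE-II (ATTGG, 1 base of any kind, then CCACG) and the UPRE core (TGACGTG). ERSE occurred in 22 of 33469 promoters (0.0657%), and among the members in those of *Hspa5*, *Xbp1* and *Creld2*. ERSE-II occurred in 17 (0.0508%), among them those of *Herpud1* and *Hyou1*, and the UPRE core in 605 (1.81%), among them those of *Hspa5* and *Hyou1*. No match was found in the windows of *Edem1*, *Dnajb9*, *Sel1l*, *Sdf2l1* and *Pdia4*, which says only that these letters are not in them. The CCACG block alone, which is part of ERSE and of ERSE-II, occurred in windows of all 10 genes, *Edem1* included, and in 31.6% of all promoters. A match is a run of letters and was not tested as a binding site. The promoters below are shown because they set *Edem1* and *Herpud1*, which rose with both agents, beside *Hspa5* and *Hyou1*, which did not, and capitals mark the matched letters of the 3 motifs.
*Edem1* (chr4:143353425-143353724, + strand): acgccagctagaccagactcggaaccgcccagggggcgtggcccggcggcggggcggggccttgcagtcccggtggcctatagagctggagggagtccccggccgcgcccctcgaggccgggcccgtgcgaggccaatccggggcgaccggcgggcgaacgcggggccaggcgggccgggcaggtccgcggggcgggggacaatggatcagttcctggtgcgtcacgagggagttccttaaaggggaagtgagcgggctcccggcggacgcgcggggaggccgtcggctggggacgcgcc
*Herpud1* (chr19:10614658-10614957, - strand): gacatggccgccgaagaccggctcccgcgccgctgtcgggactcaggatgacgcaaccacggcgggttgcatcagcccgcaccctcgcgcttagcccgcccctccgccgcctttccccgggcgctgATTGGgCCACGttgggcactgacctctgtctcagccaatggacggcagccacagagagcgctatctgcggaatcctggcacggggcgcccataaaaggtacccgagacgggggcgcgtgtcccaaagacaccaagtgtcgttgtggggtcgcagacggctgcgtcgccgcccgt
*Hspa5* (chr3:38452766-38453065, + strand): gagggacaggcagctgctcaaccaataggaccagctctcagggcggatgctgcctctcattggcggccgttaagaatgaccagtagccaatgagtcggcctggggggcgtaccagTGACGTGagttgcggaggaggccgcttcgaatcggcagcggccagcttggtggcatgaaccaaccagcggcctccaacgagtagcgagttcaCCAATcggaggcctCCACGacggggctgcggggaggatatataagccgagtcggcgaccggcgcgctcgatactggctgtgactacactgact
*Hyou1* (chr8:53602632-53602931, + strand): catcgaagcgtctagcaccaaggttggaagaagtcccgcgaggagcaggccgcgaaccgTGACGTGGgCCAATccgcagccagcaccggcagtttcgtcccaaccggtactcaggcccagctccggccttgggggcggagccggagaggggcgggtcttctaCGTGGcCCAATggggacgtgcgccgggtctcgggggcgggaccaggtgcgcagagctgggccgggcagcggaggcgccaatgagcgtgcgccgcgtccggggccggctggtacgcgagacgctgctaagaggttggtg
In *Hyou1* the UPRE core overlaps the first of 2 copies of ERSE-II, both on the minus strand of this window. The ERSE of *Xbp1* reads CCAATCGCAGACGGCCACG, and that of *Creld2* lies on the opposite strand and reads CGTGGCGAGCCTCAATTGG as printed along the gene. For the other 154 listed ER genes 130 promoter windows were found. ERSE was present in 6 of them (4.62%), those of *Calr*, *Canx*, *Derl3*, *Dnajc3*, *Ero1b* and *Hsp90b1*, ERSE-II in 1 (0.769%), the UPRE core in 15 (11.5%) and the CCACG block in 77 (59.2%).

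*Edem1* encodes a mannosidase-like lectin that recognizes misfolded glycoproteins and delivers them to ER-associated degradation. Its TPM was 66.2 in sevoflurane 0 h, 444 in sevoflurane 6 h, 67.2 in desflurane 0 h and 552 in desflurane 6 h. The controls were nearly equal and both anesthetized livers lay far above them. *Edem1* rose 6.71-fold with sevoflurane and 8.21-fold with desflurane, which are log2 changes of 2.73 and 3.02. Among the 9201 genes whose mean TPM reached 1, these were the 27th and 20th largest increases. By abundance *Edem1* stood at ranks 953 and 972 of all named genes in the controls and at ranks 157 and 134 after 6 h. The gene lies on the plus strand of chromosome 4 from 140886644 to 140918654 in the rn6 coordinates of the tables, which are also given for the genes that follow. With the other agent's control the increases were 6.60-fold and 8.34-fold. The tables also hold a locus assembled from the reads on the same strand with the same ends, and its TPM was equal to that of *Edem1* in the controls and 405 and 485 after sevoflurane and desflurane.

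The other genes of the *Edem* family were not called. They were named outside the rule for their relation to *Edem1*. *Edem2*, another mannosidase of the pathway, had a TPM of 31.2 and 29.2 at 0 h and 6 h of sevoflurane and of 33.8 and 31.3 at 0 h and 6 h of desflurane. *Edem3* had a TPM of 17.3, 27.9, 20.9 and 21.8 in the same order. *Edem1* made up 57.7% and 55.2% of the summed TPM of the 3 genes in the sevoflurane and desflurane controls, and 88.6% and 91.2% after 6 h.

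*Herpud1* (chromosome 19, 11046907 to 11057254, minus strand) encodes a membrane protein of the complex that moves substrates out of the ER for degradation. Its TPM was 64.1 in sevoflurane 0 h, 255 in sevoflurane 6 h, 122 in desflurane 0 h and 307 in desflurane 6 h. Both anesthetized livers lay above both controls, but the controls differed 1.91-fold, the largest difference between controls among the 10 genes. *Herpud1* rose 3.98-fold with sevoflurane and 2.50-fold with desflurane. Against the other control the ratios became 2.08 with sevoflurane and 4.78 with desflurane, so the order of the agents turned with the choice of control.

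*Sel1l* (chromosome 6, 115572670 to 115616858, minus strand) encodes the adaptor of the ubiquitin ligase in the same complex. Its TPM was 39.4 in sevoflurane 0 h, 52.0 in sevoflurane 6 h, 45.9 in desflurane 0 h and 51.1 in desflurane 6 h. The anesthetized livers lay above the controls by ratios of 1.32 and 1.11, and neither was called. The TPM of *Edem1* was thus 1.68 and 1.46 times that of *Sel1l* in the sevoflurane and desflurane controls and 8.54 and 10.8 times after 6 h.

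*Xbp1* (chromosome 14, 85753736 to 85758820, plus strand) encodes a transcription factor of the unfolded protein response that becomes active once the sensor IRE1 has spliced its mRNA. Its TPM was 108 in sevoflurane 0 h, 255 in sevoflurane 6 h, 96.0 in desflurane 0 h and 127 in desflurane 6 h. Both anesthetized livers lay above both controls. *Xbp1* rose 2.35-fold with sevoflurane, while the ratio with desflurane was 1.33 and was not called. At 6 h its TPM was 1.9999 times higher after sevoflurane than after desflurane, just outside the rule, and at the assembled locus the difference passed the rule. The tables give abundance per gene, so the spliced and unspliced forms of *Xbp1* were not separated.

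*Hspa5* (chromosome 3, 13838304 to 13842763, plus strand) encodes BiP, the main Hsp70 chaperone of the ER and a standard marker of the unfolded protein response. Its TPM was 385 in sevoflurane 0 h, 355 in sevoflurane 6 h, 406 in desflurane 0 h and 306 in desflurane 6 h. The anesthetized livers lay below the controls by ratios of 0.923 with sevoflurane and 0.754 with desflurane, and neither was called. *Hspa5* was the most abundant of the 10 genes in both controls, and *Edem1* was the most abundant in both anesthetized livers. The ratio of *Edem1* to *Hspa5*, which does not depend on the scaling of a library, stood at 0.172 and 0.166 in the sevoflurane and desflurane controls and at 1.25 and 1.80 after 6 h.

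*Hyou1* (chromosome 8, 48699796 to 48711912, plus strand) encodes an Hsp70-related protein that exchanges the nucleotide of BiP. Its TPM was 65.2 in sevoflurane 0 h, 46.1 in sevoflurane 6 h, 60.3 in desflurane 0 h and 36.2 in desflurane 6 h. Both anesthetized livers were lower than both controls, by ratios of 0.707 and 0.601 within agent, and neither was called.

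*Dnajb9* (chromosome 6, 64165913 to 64170122, minus strand) encodes ERdj4, a J protein that works with BiP. Its TPM was 26.8 in sevoflurane 0 h, 39.7 in sevoflurane 6 h, 36.1 in desflurane 0 h and 27.8 in desflurane 6 h. The groups overlapped, and the ratios of 1.48 with sevoflurane and 0.772 with desflurane lay on opposite sides of 1 without a call. *Sdf2l1* (chromosome 11, 88122271 to 88124513, plus strand) encodes a partner of ER J proteins. Its TPM was 28.4 in sevoflurane 0 h, 22.8 in sevoflurane 6 h, 35.0 in desflurane 0 h and 35.0 in desflurane 6 h. These groups overlapped as well, and *Sdf2l1* was not called.

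*Pdia4* (chromosome 4, 77470636 to 77489535, minus strand) encodes a protein disulfide isomerase. Its TPM was 208 in sevoflurane 0 h, 187 in sevoflurane 6 h, 217 in desflurane 0 h and 146 in desflurane 6 h. The anesthetized livers lay below both controls, with ratios of 0.897 and 0.671 that were not called. The ratio of *Pdia4* to *Hspa5* stayed between 0.476 and 0.541 in the 4 libraries. *Creld2* (chromosome 7, 129812789 to 129819636, plus strand) encodes an ER-resident protein that is a common marker of ER stress. Its TPM was 28.7 in sevoflurane 0 h, 21.4 in sevoflurane 6 h, 39.4 in desflurane 0 h and 15.4 in desflurane 6 h. Both anesthetized livers lay below both controls, and *Creld2* fell with desflurane, where the control was 2.55 times higher, but not with sevoflurane. Against the sevoflurane control the difference with desflurane was 1.85-fold and the call was lost.

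**Figure D1:**
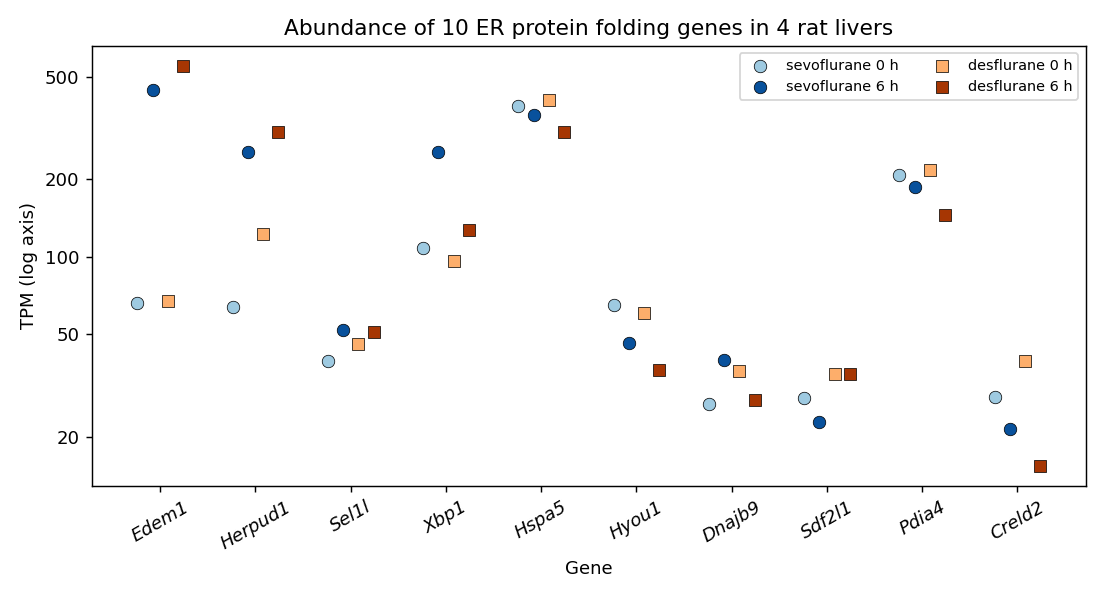
TPM of the 10 genes on a log axis, with 1 point per library (circles for sevoflurane, squares for desflurane, pale for 0 h and dark for 6 h). The 6 h points of *Edem1*, *Herpud1*, *Xbp1* and *Sel1l* lie above both controls, those of *Hspa5*, *Hyou1*, *Pdia4* and *Creld2* lie below both, and those of *Dnajb9* and *Sdf2l1* overlap the controls.

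Counted together, 3 of the 10 genes were called higher with sevoflurane (*Edem1*, *Herpud1* and *Xbp1*), where 5.04% of all 8270 genes above the minimum were called higher, and 0 were called lower, where 3.71% were. With desflurane 2 were called higher (*Edem1* and *Herpud1*), against 4.10% of 8372 genes, and 1 was called lower (*Creld2*), against 5.55%. The 2 genes called higher with both agents stand beside 2.54% of 8085 genes. Since the members were picked from this contrast, these shares are given as background only. In 4 members both 6 h libraries lay above both controls and in 4 they lay below, where 22.8% and 27.9% of the 9201 genes did so. The median log2 change of the members was 0.14 with sevoflurane and -0.18 with desflurane, and without *Edem1* it was -0.12 and -0.36. Over all 9201 genes the medians were 0.05 and -0.10. The median with each agent changed sign when the other control was used, to -0.027 with sevoflurane and to 0.14 with desflurane. The summed TPM of the 10 genes was 1020 and 1125 in the sevoflurane and desflurane controls and 1678 and 1603 after 6 h. Without *Edem1* the sums were 954 and 1058 in the controls and 1234 and 1051 after 6 h.

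**Figure D2:**
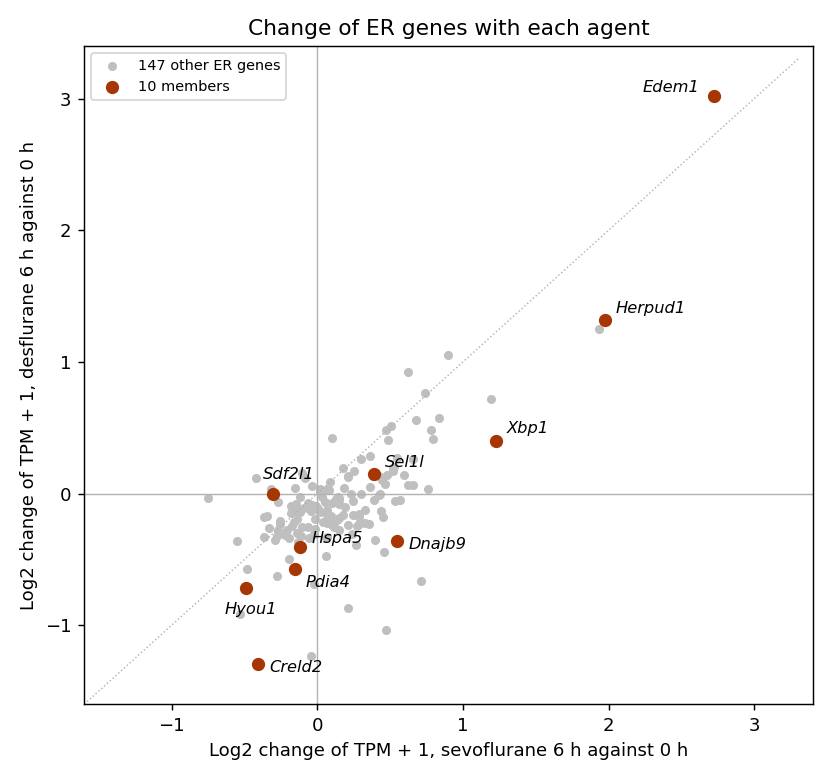
Log2 change of TPM + 1 at 6 h against 0 h with sevoflurane (horizontal axis) and desflurane (vertical axis) for the 10 members and for 147 other ER genes whose mean TPM reached 1. *Edem1* lies farthest from the origin at 2.73 and 3.02, followed by *Herpud1* at 1.98 and 1.32, and the dotted line marks equal change.

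**Figure D3:**
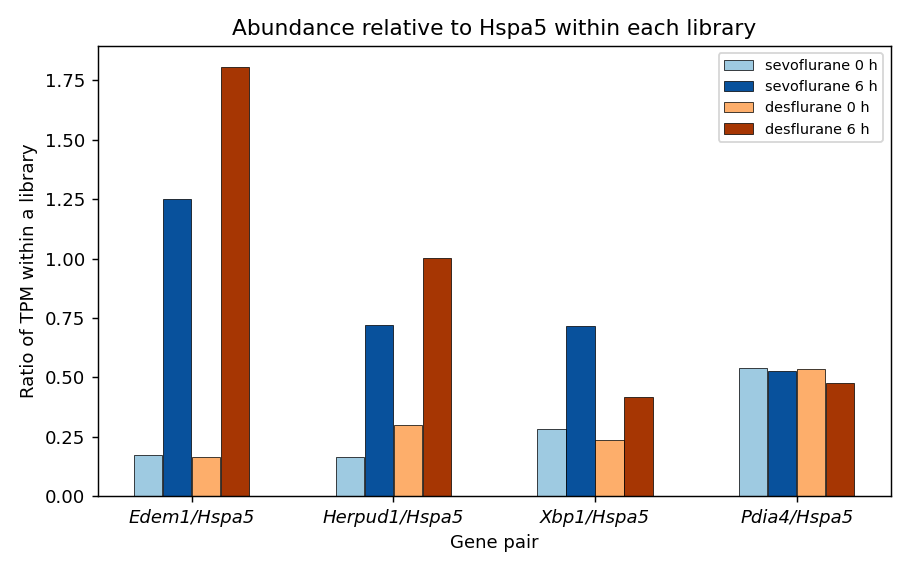
TPM of *Edem1*, *Herpud1*, *Xbp1* and *Pdia4* divided by the TPM of *Hspa5* in the same library, with 1 bar per library. The ratio of *Edem1* passes 1 in both 6 h libraries (1.25 and 1.80), while that of *Pdia4* stays between 0.476 and 0.541.

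The controls, both killed at loss of consciousness, were also compared with each other. Of the 10 members 0 were called between the controls, where 2.76% of 8263 genes were called, 1.96% as higher and 0.799% as lower in the desflurane control. The ratio of the higher to the lower control was between 1.02 (*Edem1*) and 1.38 for 9 of the members and reached 1.91 for *Herpud1*. Between the anesthetized livers 0 members were called as well, where 3.99% of 8229 genes were called, 2.21% as higher and 1.77% as lower after desflurane. The largest differences there were those of *Xbp1* (log2 difference of -0.99, desflurane minus sevoflurane) and *Sdf2l1* (1.53 times higher after desflurane). *Edem1* was 1.24 times higher after desflurane than after sevoflurane. These comparisons use the same libraries as those of 6 h with 0 h.

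Other genes of the ER were examined in 7 lists with 154 genes beside the members. With sevoflurane 2 of the 145 above the minimum were called higher and 0 lower, or 1.38%, where 8.75% of all genes were called in either direction. With desflurane 2 of 144 were called higher and 3 lower, or 3.47%, against 9.65% of all genes. The median log2 change of the 147 whose mean TPM reached 1 was 0.10 with sevoflurane and -0.11 with desflurane, beside 0.05 and -0.10 over all genes. The controls differed by 0.11 in the same measure, both for these genes and for all genes.

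The list of ER-associated degradation, with 32 genes used, had 2 genes called higher and 0 lower with each agent, where 5.04% of all genes were called higher with sevoflurane and 4.10% with desflurane. *Derl3*, a channel component of the pathway, rose from a TPM of 0.54 to 4.87 under sevoflurane and from 1.51 to 4.99 under desflurane, and was the 1 gene of the list called with both. *Marchf6*, a ubiquitin ligase of the ER membrane, rose from 33.1 to 76.9 with sevoflurane and went from 42.0 to 69.9 with desflurane without a call. *Yod1*, a deubiquitinase of the pathway, rose from 9.11 to 19.9 with desflurane, and went from 6.63 to 13.2 with sevoflurane, a ratio of 1.99 and just short of the rule. The median change of the list was 0.21 with sevoflurane and 0.034 with desflurane.

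No gene was called with either agent among the cochaperones of the Hsp70 system (9 used), the lectin chaperones and glycan trimming enzymes (12 used), the disulfide exchange enzymes (19 used) and the genes of vesicle traffic (29 used). Over all genes 8.75% were called in either direction with sevoflurane and 9.65% with desflurane. *Hsp90b1*, the Hsp90 of the ER, had a TPM of 210.1 and 218 at 0 h and 6 h of sevoflurane and of 209 and 199.6 at 0 h and 6 h of desflurane. *Dnajc3*, a BiP cochaperone, had 229, 189.9, 236 and 195 in the same order. *Calr*, a lectin chaperone, had 652, 506, 609 and 539. *Lman2*, a lectin that sorts glycoproteins for export, had 171, 164, 175 and 146. Each of these was far above the minimum in all 4 livers. *P4hb* and *Pdia6*, both protein disulfide isomerases, lay between 508 and 551 and between 218 and 233. *Tmed2*, a cargo receptor of transport vesicles, lay between 175 and 195. *Sar1b*, the GTPase that starts vesicle formation at the ER, stood at 132 and 124 in the controls and at 222 and 212 after 6 h, with ratios of 1.68 and 1.71.

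The sensors of the response were examined next. *Ern1*, which encodes the sensor IRE1, lay between 4.30 and 6.42 in the 4 libraries, *Eif2ak3*, which encodes PERK, between 5.63 and 9.62, and *Atf6* between 11.2 and 18.3. These 3 were named outside the rule for their role, and none was called with either agent. In the list of 18 genes, 14 of them with a mean TPM that reached 1, 0 were called with sevoflurane and 2 were called lower with desflurane. Over all genes 8.75% were called in either direction with sevoflurane, and 5.55% were called lower with desflurane. The 2 sensor list genes called were *Traf2*, an adaptor of IRE1 signaling, which fell from 10.02 to 3.69, and *Creb3l2*, a membrane-bound transcription factor, which fell from 3.55 to 1.22. *Creb3l2* was 2.43 times higher in the desflurane control than in the sevoflurane control. *Alg2*, a mannosyltransferase and the only call among the 34 genes of translocation and glycosyl transfer, fell with desflurane from 3.96 to 1.71, and its sevoflurane control was at 1.73. That 1 call stands beside the 5.55% of all genes called lower with desflurane.

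**Figure D4:**
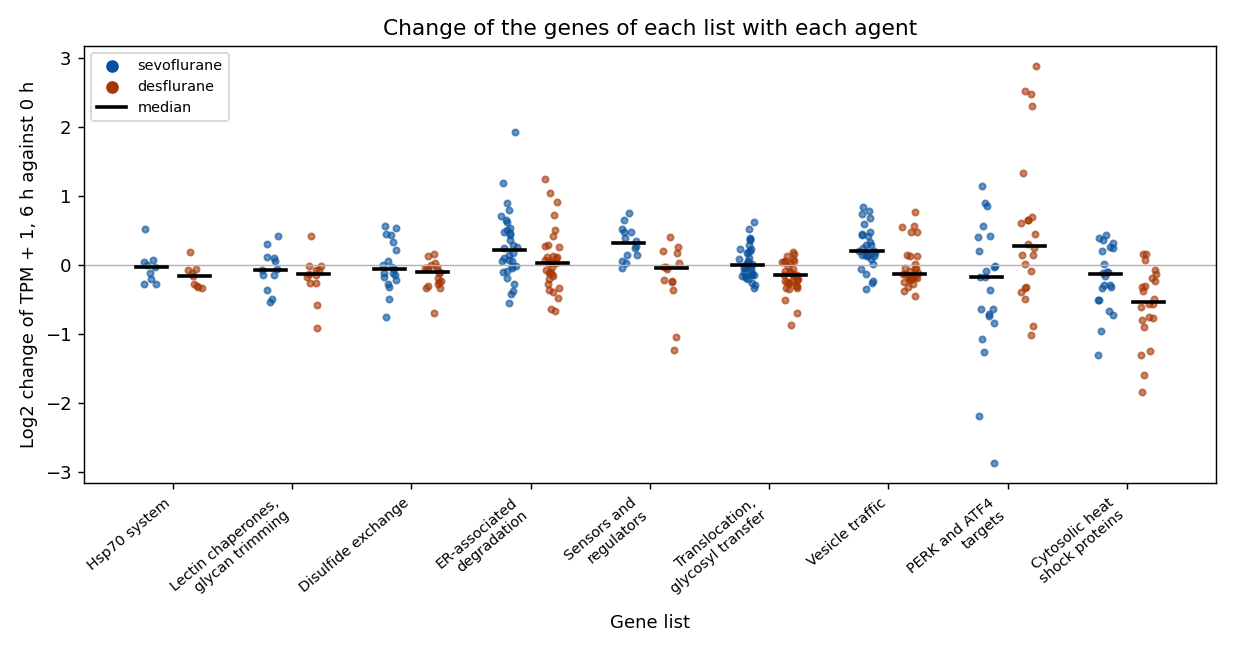
Log2 change of TPM + 1 at 6 h against 0 h for each gene whose mean TPM reached 1 in the 7 ER lists and in the lists of PERK and ATF4 targets and of cytosolic heat shock proteins, for sevoflurane (blue) and desflurane (brown), with black bars at the medians. The lists of the Hsp70 system, lectin chaperones and disulfide exchange lie close to 0, with medians between -0.16 and -0.02. The list labeled cytosolic heat shock proteins also holds the mitochondrial *Hspd1* and *Hspe1* and the transcription factor *Hsf1*.

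A pair of neighboring stress programs was set beside the ER genes. Of the 25 targets of PERK and ATF4, 1 was called higher and 5 lower with sevoflurane, and 5 were called higher and 1 lower with desflurane, with medians of -0.18 and 0.28 over 22 genes. Over all genes 5.04% were called higher and 3.71% lower with sevoflurane, and 4.10% and 5.55% with desflurane. *Ppp1r15a*, which restores translation after PERK signaling, rose with both, from 3.34 to 8.65 and from 2.33 to 17.6, and *Cebpb*, a transcription factor, rose from 28.4 to 168 with desflurane. *Gdf15*, a secreted stress cytokine, fell from 4.53 to 1.31 with sevoflurane and rose from 1.10 to 14.5 with desflurane. *Fgf21*, a hormone of the liver, fell from 25.1 to 2.59 under sevoflurane, whereas the desflurane control and 6 h liver had 5.94 and 5.52. The list of 26 cytosolic heat shock genes also holds the mitochondrial chaperone genes *Hspd1* and *Hspe1* and the transcription factor gene *Hsf1*. Among the 26 genes 0 were called higher with either agent. Of them 3 fell under sevoflurane and 4 under desflurane, beside 3.71% and 5.55% of all genes called lower. *Fkbp4*, a cochaperone of Hsp90, fell from 70.0 to 27.9 and from 68.2 to 27.1, and *Chordc1* and *Hsph1* fell with desflurane, from 17.0 to 4.04 and from 19.3 to 5.76. *Hspa8*, the constitutive cytosolic Hsp70, which the tables list at several loci that may share reads, fell from 337 to 142 with desflurane whereas the sevoflurane control and 6 h liver had 139 and 179.8. No test of a difference between lists was made.

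The genes most like *Edem1* in their profile over the 4 libraries were found by the Euclidean distance between log2(TPM + 1) values centered on the mean of each gene, over 9201 genes. They were *Slc25a32*, a mitochondrial folate carrier (distance 0.32), *Rell1* (0.43), *Ptp4a1*, a protein tyrosine phosphatase (0.44), *Usp2*, a deubiquitinase (0.48), and *Rgs16*, a regulator of G protein signaling (0.48). *Slc25a32* went from a TPM of 6.21 to 54.5 under sevoflurane and from 8.36 to 78.7 under desflurane. The sevoflurane and desflurane controls were low for *Usp2* (0.54 and 0.94) and *Rgs16* (0.32 and 0.41). Their ratios, 24.9 and 19.8 for *Usp2* and 17.5 and 28.3 for *Rgs16*, were far above those of *Edem1*. *Rell1* had ratios of 6.33 and 16.6. With a pseudocount of 0.1 only *Slc25a32* and *Ptp4a1* stayed among the nearest 5. Among all listed stress and ER genes the nearest were *Ppp1r15a* (1.18, rank 53), *Cebpb* (1.35, rank 83) and *Herpud1* (1.38, rank 87). The other members lay farther, from *Xbp1* at rank 469 to *Creld2* at rank 8980 of 9200.

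In bulk liver, fewer cells of a type and less RNA per cell cannot be told apart. Among the cell type markers the 4 listed red blood cell genes had a summed TPM between 453 and 728 in the controls and between 1215 and 1343 at 6 h. Of these genes 3 were called higher with sevoflurane and 0 with desflurane, where 5.04% and 4.10% of all genes were called higher. In 22.8% of the 9201 genes whose mean TPM reached 1, both 6 h libraries lay above both controls. The summed TPM of the 8 Kupffer cell markers was 387 at 0 h and 318 at 6 h of sevoflurane, with 1 of 8 higher at 6 h and a median log2 change of -0.31. It was 346 at 0 h and 417 at 6 h of desflurane, with 8 of 8 higher and a median of 0.30. None of the 8 was called, where 8.75% and 9.65% of all genes were called in either direction. Over the 9201 genes 55.5% were higher at 6 h with sevoflurane and 38.3% with desflurane, with medians of 0.05 and -0.10. The Kupffer markers already differed between the controls. There 1 of 8 was higher in the desflurane control, with a median of -0.19, where 69.3% of all genes were higher. The part of these cells in the changes above was not tested.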

How the data were processed

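RNA from the liver of 4 rats, 1 library per group, was sequenced after preparation with a stranded total RNA kit, per the labels. HISAT2, SAMtools, StringTie and the build rn6 are named in the submitters' processing notes, without versions. The authors deposited 1 gene table for each library, in which the column of TPM was handled as a score, since assembled loci alone reach the full sum of a TPM column and rows named by reference gene come on top. The deposited FPKM and the deposited coverage, the mean depth per base, were used only for the aligned bases, taken as coverage over FPKM, and for depth. Entries of a symbol were summed, after removal of those not longer than 200 bp. The calls used Python 3.11.15 with pandas 2.3.3 and numpy 2.4.6. Their code was checked on simulated data with large planted changes and little noise, which says nothing about differences between animals. The members and gene lists were chosen with earlier results of these data known. The genes named were the 10 members, up to 4 called genes per list by change (otherwise the 2 most abundant), the 5 genes and 3 listed genes nearest to *Edem1*, and those said to be outside this rule. Scaling, thresholds, pseudocount and control were varied, and the assembled loci and the omission of *Edem1* were added after seeing the data. The single library per group is the limit on precision.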

Additional observations from a re-analysis of the deposited data

Results flagged for a closer look

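Some results had opposite signs with the 2 agents, and with 1 animal per group none of these differences was tested. The log2 change with desflurane minus that with sevoflurane was -0.91 for *Dnajb9* and -0.32 for the median of the 10 members. Among the other named genes it was -1.61 for *Hspa8*, a cytosolic Hsp70 that the tables list at several loci, whose values were summed, -0.12 for *Hsp90b1*, -0.75 for *Eif2ak3*, -0.52 for *Ern1*, -1.51 for *Creb3l2*, -1.08 for *Alg2* and 4.15 for *Gdf15*, a secreted stress cytokine. The controls of *Gdf15* also differed, with a TPM of 4.53 in that of sevoflurane and 1.10 in that of desflurane. The ratio of the desflurane to the sevoflurane control was 2.43 for *Hspa8* and *Creb3l2*, 2.29 for *Alg2* and 1.71 for *Eif2ak3*. It was 1.34 for *Dnajb9*, 1.03 for *Ern1* and 0.995 for *Hsp90b1*.

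Within *Edem1* a locus on the opposite strand was assembled in sevoflurane 6 h alone, on chromosome 4 from 140904202 to 140904976, with a TPM of 7.01. Its mean depth per base was 11.6, beside 1519 for *Edem1* itself in the same library. No such locus was listed in the other 3 libraries. Whether it is a transcript of its own was not tested.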

How the results depend on the processing

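No paired analysis was possible because each group held 1 library. For the same reason no replicate could be left out. *Edem1* was called higher with both agents under every alternative. With a ratio above 3, sevoflurane had 2 members higher (*Edem1* and *Herpud1*, without *Xbp1*), and desflurane had 1 higher (*Edem1*) and 0 lower. With a ratio above 1.5, 2 members were lower with desflurane, 1 was higher between the controls (*Herpud1*), and 1 was higher and 1 lower in desflurane 6 h against sevoflurane 6 h. With the control of the other agent, 0 members were lower with desflurane, and the median change of the members became -0.027 with sevoflurane and 0.14 with desflurane. Without *Edem1* the median with sevoflurane was -0.12. At the assembled loci, 2 members were lower after desflurane than after sevoflurane at 6 h (*Dnajb9* and *Xbp1*). For the 7 ER lists, a ratio above 1.5 gave 19 genes higher and 1 lower with sevoflurane, 6 higher and 8 lower with desflurane, 5 higher between the controls, and 2 higher and 4 lower between the 6 h livers. The share of all genes called was not computed for any of these alternatives. The counts of members and of ER list genes under them therefore have no background. Whether they differ from those of other genes was not tested. Of the 5 genes nearest to *Edem1*, 2 remained with a pseudocount of 0.1 and 4 with a minimum mean TPM of 5. The other 89 values of counts and medians stayed within 1.5 times the reported count or within 0.19 of the reported median. That 0.19 is the median absolute log2 difference of the members between the controls. Scaling by the median of ratios took the median of all genes from -0.10 to -0.0008 with desflurane and from 0.11 to 3.7e-05 between the controls, and changed no call of a member. The sevoflurane control was the shallowest library.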

Other observations

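Just behind the 5 genes nearest to *Edem1* in profile came *Retreg1*, a receptor for the removal of ER by autophagy, which was named after its values were seen. It went from a TPM of 6.95 to 45.4 under sevoflurane and from 10.1 to 86.7 under desflurane, ratios of 6.53 and 8.61. *Tat*, an enzyme of tyrosine breakdown (from 123 to 529 and from 119 to 623), and *Klf9*, a transcription factor (from 10.2 to 46.8 and from 11.7 to 61.5), followed and were also named after their values were seen.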
